A study of Mus musculus with 8 samples.

Results

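The comparison was between 2 mouse melanoma cell lines of the same genotype, lines 119 and 73, both labelled wild type, in chromatin accessibility measured by ATAC-seq. The assay uses a transposase that cuts and tags DNA where it is accessible, so the count of a region rises with its openness. The 4 libraries used, 2 per line, were the wild-type columns of a table that held 8 libraries, and 134068 of its 148664 regions passed the count filter and were all compared. The other 4 libraries came from STAT3 knockout lines 112 and 113. They entered the fit only to share the estimate of the spread. Their levels are given where they place a wild-type value. Every line was a pool grown from lymph node cell suspensions of mice with cutaneous melanoma that began at about 25 to 30 weeks of age. The wild-type lines are given as Stat3fl, a floxed Stat3 allele, and the knockout lines as the deleted form, with no Cre driver or strain named in the labels. The labels also call each line a clone. A p number in the sample titles (p14 against p68) also separates the lines, and the labels do not define it. The p number, the line and any handling of a line as a whole cannot be told apart, since each line has 1 value of each. A line is 1 cell pool, so the values compare these 2 pools and not wild-type melanoma in general. The replicates are labelled biological. Nothing says whether they came from separate cultures, so p-values measure only the spread between these libraries, which may be technical.

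Melanoma arises from melanocytes, pigment cells that descend from the neural crest. Sox10, Pax3, Foxd3 and Tfap2a are transcription factors of the neural crest and its glial and pigment cell descendants, and Mitf switches on the enzymes and pumps of the melanosome. Melanoma cells are known to move between states, from pigmented through neural crest-like to mesenchymal-like, the last with open genes for extracellular matrix and for YAP and TGF-beta targets. Promoters are accessible in most cell types, whereas accessible sites far from genes differ more between cell types.

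The wild-type libraries held 7464336 and 5736939 counts in line 119 and 4367914 and 3945177 counts in line 73, and the authors' peak lists held 94906 and 85498 peaks against 56497 and 56096. The strongest 10% of regions took 39.6% and 40.4% of all counts in line 119 and 51.1% and 50.9% in line 73, so signal was more concentrated in line 73. The variance between replicates was 1.07 (line 119) and 1.35 (line 73) times the counting variance, as chi-square per degree of freedom. Log2 CPM, counts per 1000000 of the TMM-scaled library size, correlated between replicates at 0.959 in line 119 and 0.932 in line 73, across regions, which are not independent replicates.

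Line 119 and line 73 differed at 80760 of 134068 regions (60.2%; adjusted p under 0.05, edgeR quasi-likelihood test). The number higher in line 119 was 39629 (29.6%) and the number higher in line 73 was 41131 (30.7%). Differences of at least 4-fold were found at 21182 regions higher in line 119 and 11075 higher in line 73, and of at least 16-fold at 2897 and 1243. For scale, the same fit called 34146 regions (25.5%) between the knockout lines. The 2 counts rest on different libraries and their difference was not tested. The split by direction depended on how libraries were scaled. With scaling factors taken from gene-start regions only, the median over all regions moved from -0.09 to 0.57 on the log2 scale. Then 74773 regions were called (55.8%), 56590 higher in line 119 (42.2%) and 18183 higher in line 73 (13.6%). A log2 difference is line 119 minus line 73 throughout. Because this shift is close to a constant, every direction below is given for regions called the same way under both scalings unless stated, 29.6% of regions for line 119 and 13.6% for line 73. Both libraries of line 119 lay above both of line 73 at 39.5% of regions and below them at 41.6%. The main log2 values lie about 0.66 below those of the gene-start scaling.

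The position of a region relative to genes separated the lines. A gene start was taken from RefSeq where its strand was listed (17491 of 21883 protein-coding genes), and for the other 4392 genes either end served. Within 1 kb of a start so defined, with all-region scaling, 10957 of 17286 regions were higher in line 73 and 1618 higher in line 119, with a median log2 difference of -0.69. Over 50 kb from any start, 18927 of 48380 regions were higher in line 119 and 10375 higher in line 73, and the median was 0.47. Between 1 and 50 kb the counts were 19084 and 19799 of 68402. Line 119 was thus relatively more open far from gene starts and line 73 relatively more open at gene starts. In the gene-start scaling the balance at starts was near even, 3493 against 3008, as its construction fixes, and that over 50 kb widened to 25096 against 5841. The median rose with distance in each step, from -0.73 for regions that span a start to 0.01 at 20 to 50 kb, 0.85 at 200 to 500 kb and 1.36 beyond 500 kb (3490 regions). Among regions over 1 kb from a start, the median was 0.11 inside genes and 0.11 outside them. The concentration of counts in strong regions, given above, moves with this result and its part in it was not tested.

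**Figure D1:**
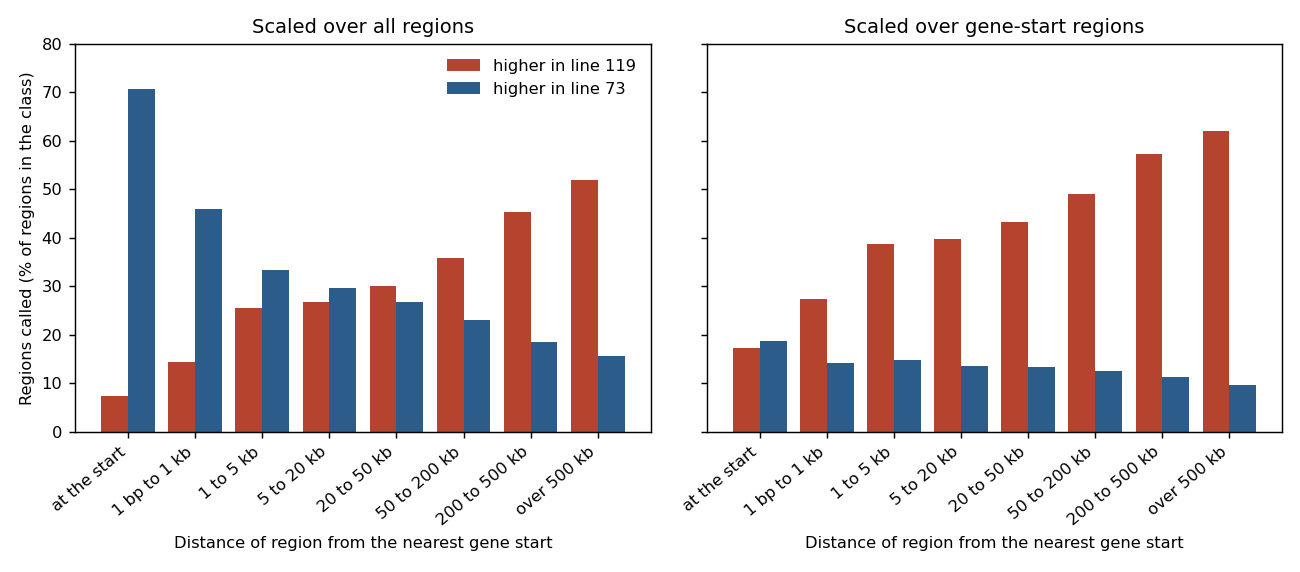
Share of regions called higher in line 119 (red) or line 73 (blue) by distance from the nearest gene start, in %, with libraries scaled over all regions (left) or over gene-start regions (right). The share higher in line 119 rises from 7.29% at starts to 52.0% beyond 500 kb on the left, and from 17.3% to 62.1% on the right.

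The authors' peak calls, made per library, gave a second view of the same libraries. Of the tested regions, 32930 overlapped a peak in all 4 libraries, 35653 in both libraries of line 119 and in none of line 73, and 8221 the reverse. The deeper libraries of line 119 have more peaks, which bears on these numbers. Regions with peaks in line 119 only had a median of 6.03 CPM in line 119 and 1.58 CPM in line 73, and those with peaks in line 73 only had 1.32 and 7.75 CPM. Shared peaks were the strongest, at 12.6 and 17.0 CPM. Line-restricted peaks were mostly away from gene starts. Starts held 1580 of the regions with peaks in line 119 only and 496 of those in line 73 only, against 11666 of the shared ones. Over 50 kb from a start lay 16614, 3152 and 7579.

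**Figure D2:**
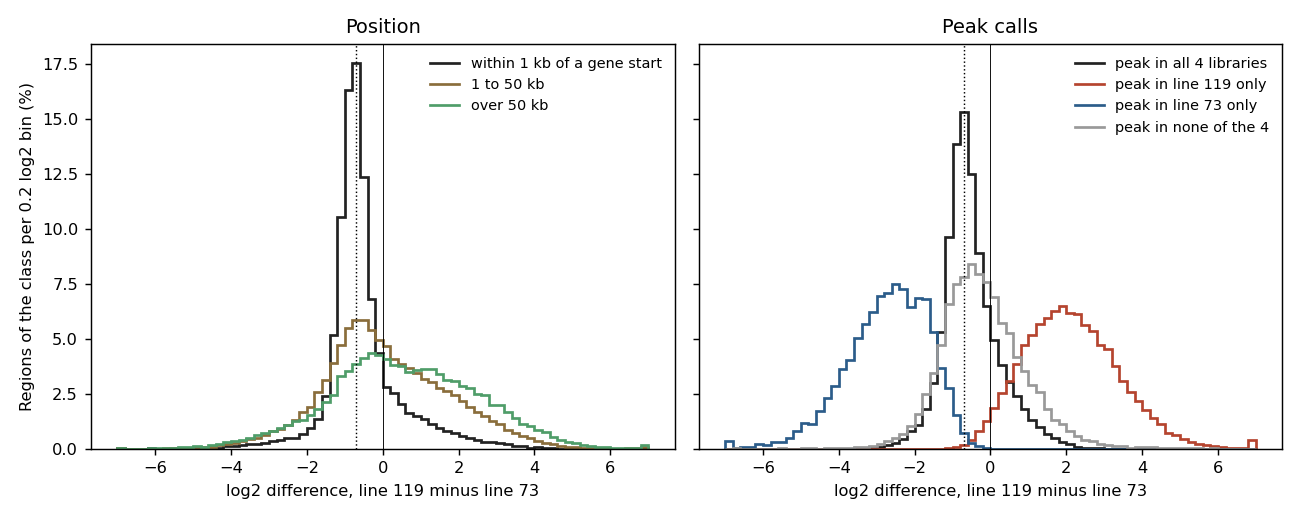
Distribution of the log2 difference, line 119 minus line 73, for classes of position (left) and of peak calls (right), in % of the regions of a class per bin, with values beyond 7 placed in the outer bins. The dotted line marks the median of gene-start regions, -0.69, and regions over 50 kb from a start centre at 0.47.

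Chromosome medians ran from -0.81 on chromosome Y, with only 23 regions, and -0.48 on chromosome 15 and -0.47 on chromosome 10 to 0.34 on chromosome 2 and 0.38 on chromosome 16. In 10 Mb windows the median over regions without a peak in any wild-type library ran from -0.92 to 0.97 over 260 windows, with quartiles of -0.47 and -0.06. Among the lowest was the window from 100 Mb of chromosome 15, and the highest was that from 40 Mb of chromosome 2. With these window medians taken as an offset, a setting chosen after seeing the data, 79204 regions were called.

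Loci were ranked by their regions called at least 2-fold apart with all-region scaling alone. On that basis, of all 134068 tested regions, 36734 were at least 2-fold higher in line 119 and 28612 in line 73. The loci with the most regions higher in line 119 were all very long genes. Ptprt, a receptor tyrosine phosphatase of neurons, had 47 of 57 regions called at least 2-fold higher in line 119 with all-region scaling and 0 in line 73 (median log2 difference 2.74). The neighbouring adhesion genes Opcml and Ntm on chromosome 9 had 46 of 75 and 40 of 46, with 8 and 0 the other way. Dlg2 (a synaptic scaffold), Macrod2, Asic2 (an acid-sensing ion channel), Astn2 and Cntnap2 (a neuronal adhesion protein) followed with 44, 41, 40, 39 and 38. These 8 genes are 969 to 2241 kb long, so a count of regions favours them. Toward line 73, again with all-region scaling alone, Tns1, tensin 1 of focal adhesions, had the most. It had 37 of 52 regions at least 2-fold higher in line 73 (median -1.64). Sgms1 and Pde3a had 22 of 35 and 18 of 37. With 16 each came Actn1 and Myh9 (alpha-actinin and a non-muscle myosin), Lrp1, Nrp2, Nfix, Rftn1, Kcnq5, Arsb and Ptprg. These had from 18 (Actn1) to 41 regions (Ptprg), and from 0 (Actn1) to 3 (Myh9) at least 2-fold higher in line 119. These 12 genes are 81.6 to 689 kb long.

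Of 14261 genes with a tested region within 1 kb of the start, the strongest such region was higher in line 119 under both scalings for 1128 (7.91%) and higher in line 73 for 2622 (18.4%). For a gene without a listed start, that region may lie at either gene end and need not be a promoter. With all-region scaling alone, 77.8% of genes were called, 9964 (69.9%) were higher in line 73, and the median gene was at -0.72. Ribosomal protein genes, which every cell uses, had nearly the same median (-0.73 over 79 genes), and all values below are to be read against it.

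Of the 23 pathway lists compared, neural crest transcription factors held the highest share of genes higher in line 119. Of 14 with a start region, 6 were higher in line 119 and 3 in line 73. These are 42.9% and 21.4%, against 7.91% and 18.4% of all genes. The start region of Sox2, a factor of neural stem cells and Schwann cell precursors, had 29.7 and 31.0 CPM in line 119 and 1.77 and 2.75 CPM in line 73 (log2 difference 3.74 ± 0.32 SE, adjusted p = 4.06e-14). That of Foxd3, which marks early neural crest, had 61.7 and 67.7 CPM in line 119 and 6.34 and 9.36 CPM in line 73 (log2 difference 3.05 ± 0.21 SE, adjusted p = 4.31e-17). Sox10 had 16.1 and 19.2 CPM in line 119 and 2.53 and 3.58 CPM in line 73 (log2 difference 2.52 ± 0.31 SE, adjusted p = 8.95e-10), and Pax3 had 32.9 and 29.0 CPM in line 119 and 5.83 and 6.60 CPM in line 73 (log2 difference 2.32 ± 0.24 SE, adjusted p = 9.34e-12). Libraries of the lines did not overlap at any of these, as at 39.5% of all regions in the same direction. No start was listed for Sox10 and Pax3, so their regions may lie at either gene end. Tfap2a and Tbx2 were also higher, at 1.06 and 0.55 on the log2 scale, and Ets1, Msx1 and Mitf were higher in line 73, at -1.70, -1.24 and -1.04. Over whole loci the shares differed. All 6 regions assigned to Sox2, 6 of 8 of Sox10, 4 of 5 of Foxd3 and 9 of 34 of Pax3 were higher in line 119 and none was higher in line 73. For Pax3 that is 26.5%, below the 29.6% of all regions. The knockout lines had 22.6 (line 112) and 28.3 CPM (line 113) at Sox10, above both wild-type lines, and less than line 119 at Sox2 (1.82 and 14.5 CPM). Genes of Schwann cells, the glia of peripheral nerve, were mixed. Cdh19, a cadherin of Schwann cell precursors, had 17.9 and 16.8 CPM in line 119 and 0 and 1.10 CPM in line 73 (log2 difference 4.97 ± 0.48 SE, adjusted p = 1.87e-12). Fabp7, a fatty acid binding protein of glia, differed by 2.03 and Gap43, a growth cone protein, by -1.94. The other 7 glial genes with a region passed in neither direction.

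The promoters of the 2 most changed neural crest factors and of Irx2, which of the named starts with counts in every library differed most toward line 73, are shown for the 250 bases before the start, from RefSeq on GRCm38.p6. Capitals mark matches of 14 short motifs searched on both strands, each spelled out where its share is given.
Sox2 (chr3:34649745-34649994, plus strand): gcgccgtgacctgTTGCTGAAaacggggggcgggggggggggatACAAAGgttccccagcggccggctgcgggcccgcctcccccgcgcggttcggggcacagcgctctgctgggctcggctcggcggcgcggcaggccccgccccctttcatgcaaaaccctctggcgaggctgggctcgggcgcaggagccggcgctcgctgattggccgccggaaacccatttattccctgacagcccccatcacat
Foxd3 (chr4:99656049-99656298, plus strand): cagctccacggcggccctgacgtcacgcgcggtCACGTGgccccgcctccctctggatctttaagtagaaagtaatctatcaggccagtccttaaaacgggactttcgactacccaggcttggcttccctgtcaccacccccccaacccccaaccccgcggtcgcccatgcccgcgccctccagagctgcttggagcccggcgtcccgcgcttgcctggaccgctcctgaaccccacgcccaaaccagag
Irx2 (chr13:72628570-72628819, plus strand): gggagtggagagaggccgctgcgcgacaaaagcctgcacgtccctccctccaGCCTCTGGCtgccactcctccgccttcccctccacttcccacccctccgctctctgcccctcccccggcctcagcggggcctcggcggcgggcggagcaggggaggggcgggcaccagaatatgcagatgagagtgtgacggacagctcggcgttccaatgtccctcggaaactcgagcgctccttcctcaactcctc
The Sox2 window holds TTGCNNAA (a C/EBP-type pattern) beginning 237 bases before the start and ACAAAG (the SOX and TCF core) at 206 bases. Foxd3 holds CACGTG, the E-box of bHLH factors such as MITF and MYC, at 217 bases, and Irx2 holds GCCNNNGGC, a TFAP2-type pattern, at 198 bases. Of 11940 promoter windows of 300 bases with a tested region at the start, 7.55% hold TTGCNNAA, 12.7% ACAAAG, 10.2% CACGTG and 26.6% GCCNNNGGC. A match describes letters, not binding.

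Across promoters, the ETS-type letters CCGGAAG were in 5.15% of the 776 windows whose start region was higher in line 119, in 15.8% of the 2236 higher in line 73 and in 19.8% of the other 8928. ACAAAG was in 17.7%, 11.1% and 12.6%, AACAAT (another SOX core) in 8.63%, 3.80% and 5.24%, and TGANTCA (AP-1) in 8.51%, 5.41% and 4.93%. Promoters higher in line 119 were poorer in CpG, with a median of 17 CpG per window against 24 and 22. GC content was 61.0%, 63.3% and 62.0%. Motif shares move with base composition, and neither was tested.

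Pigment genes differed in both directions. Of 20 with a start region, 5 were higher in line 119 and 1 in line 73. These are 25.0% and 5.00%, against 7.91% and 18.4% of all genes. Rab38, a GTPase that brings enzymes to melanosomes, had 14.6 and 13.6 CPM in line 119 and 0.760 and 1.38 CPM in line 73 (log2 difference 3.71 ± 0.40 SE, adjusted p = 3.80e-11). Slc24a5, a melanosomal ion exchanger, had 17.6 and 17.8 CPM in line 119 and 2.03 and 3.58 CPM in line 73 (log2 difference 2.66 ± 0.31 SE, adjusted p = 2.17e-10). Mc1r, the melanocortin receptor, Slc45a2, a melanosomal transporter, and Tyr, tyrosinase, differed by 1.85, 1.77 and 1.38. No start was listed for Rab38, Slc45a2, Pmel and Mlana, so their regions may lie at either gene end. The call of Tyr was lost without replicate 2 of line 73 (adjusted p = 0.0587). Pmel, the fibril protein of the melanosome, went the other way, with 31.5 and 34.1 CPM in line 119 and 75.03 and 72.6 CPM in line 73 (log2 difference -1.17 ± 0.16 SE, adjusted p = 2.28e-08), at a start region it shares with Rab5b. The late pigment genes were low in both wild-type lines. Mlana had 0.648 and 0.848 CPM in line 119 and 0.507 and 0 CPM in line 73, Tyrp1 1.04 and 1.02 CPM in line 119 and 2.03 and 3.58 CPM in line 73, and Dct 1.81 and 1.53 CPM in line 119 and 3.04 and 1.65 CPM in line 73, and none was called under both scalings. Over the 8 melanocyte markers, 3 were higher in line 119 and 2 in line 73. These are 37.5% and 25.0%, against 7.91% and 18.4% of all genes. The sum over the 8 was 106 and 111 CPM in line 119 and 129 and 129 in line 73. Of that, Pmel gave 31.5 and 34.1 CPM in line 119 and 75.03 and 72.6 CPM in line 73. The sum was higher in line 73 only with that region, shared with Rab5b, counted. Of these markers, Mitf was open in both lines and Sox10 and Pax3 were higher in line 119 than in line 73. Mlana, Tyrp1, Dct and Tyr were below 5 CPM in both lines, and Pmel cannot be told apart from Rab5b. In line 73, 5 of the 8 markers, Sox10 among them, were under 5 CPM, and Pax3 had 5.83 and 6.60 CPM. Mitf had 37.8 and 39.6 CPM there, against a median of 29.4 CPM over the strongest start regions of all genes. These markers thus give little by which to match line 73 to the labelled cell type. The knockout lines had 10.7 and 10.4 CPM at Mlana and 23.4 and 32.9 CPM at Dct. Mitf, the master factor of this pathway, had 17.2 and 20.5 CPM in line 119 and 37.8 and 39.6 CPM in line 73 (log2 difference -1.04 ± 0.19 SE, adjusted p = 5.24e-06), and -0.38 in the gene-start scaling. Of its 48 regions, 6 were higher in line 119 and 7 in line 73. These are 12.5% and 14.6%, against 29.6% and 13.6% of all regions.

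Slc24a5 and Tyr carry the letters TCATGTG, the M-box known as an element of MITF targets, close to the start, and are shown for that reason with matches in capitals. The called region covers the printed window at Slc24a5. At Tyr it lies 479 bp from the start, outside the printed window.
Slc24a5 (chr2:125067877-125068126, plus strand): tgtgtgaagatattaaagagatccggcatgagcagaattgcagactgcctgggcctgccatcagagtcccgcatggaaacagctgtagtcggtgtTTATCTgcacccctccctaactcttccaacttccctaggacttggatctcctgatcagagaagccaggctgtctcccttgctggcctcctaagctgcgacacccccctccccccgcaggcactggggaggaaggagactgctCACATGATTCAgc
Tyr (chr7:87493513-87493762, minus strand): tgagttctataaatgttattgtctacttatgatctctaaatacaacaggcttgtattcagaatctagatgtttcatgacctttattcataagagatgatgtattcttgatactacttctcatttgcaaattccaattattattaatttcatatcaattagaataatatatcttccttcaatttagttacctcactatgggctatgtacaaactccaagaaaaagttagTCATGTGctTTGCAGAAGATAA
The M-box letters begin 13 bases before the start of Slc24a5, on the opposite strand and overlapping TGANTCA, and 22 bases before that of Tyr, with a TTGCNNAA match at 13 bases and AGATAA at 6. TCATGTG was in 2.06% of windows higher in line 119, 1.97% of those higher in line 73 and 1.68% of the rest.

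The Hox genes lay mostly toward line 73. The 4 Hox clusters, whose factors set position along the body axis, had 30 genes with a start region, of which 19 were higher in line 73 and 0 in line 119 (median -2.41, against -0.72 over all genes). The 19 are 63.3%, against 18.4% of all genes. Hoxa9 had 1.43 and 1.02 CPM in line 119 and 20.03 and 20.9 CPM in line 73 (log2 difference -4.01 ± 0.33 SE, adjusted p = 1.43e-14). Hoxd9 had 1.43 and 2.204 CPM in line 119 and 26.6 and 31.4 CPM in line 73 (log2 difference -4.01 ± 0.31 SE, adjusted p = 1.13e-15), Hoxb2 differed by -3.80 and Hoxc9 by -3.68. By cluster, 8 of 9 Hoxa, 6 of 7 Hoxc, 3 of 7 Hoxd and 2 of 7 Hoxb genes were higher in line 73. Neighbours in a cluster share chromatin and are not independent. The Iroquois factors Irx1 and Irx2, neighbours on chromosome 13, were among the largest differences of all starts. Irx2 had 1.17 and 0.848 CPM in line 119 and 87.5 and 93.3 CPM in line 73 (log2 difference -6.42 ± 0.30 SE, adjusted p = 1.92e-22), and Irx1 had 1.04 and 0.678 CPM in line 119 and 57.5 and 67.1 CPM in line 73 (log2 difference -6.10 ± 0.31 SE, adjusted p = 4.22e-21). The knockout lines had 7.15 and 4.45 CPM at Irx2 and 5.25 and 5.82 at Irx1, between the wild-type lines.

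The list of fibroblast and reticular cell markers, which shares Pdgfrb and the type I collagens with other lists here, had 7 start regions, of which 5 were higher in line 73 and 0 in line 119. The 5 are 71.4%, against 18.4% of all genes. Col1a2, a chain of type I collagen, had 0.518 and 0.678 CPM in line 119 and 33.0 and 30.8 CPM in line 73 (log2 difference -5.70 ± 0.38 SE, adjusted p = 1.41e-17). Dcn, the matrix proteoglycan decorin, had 0.259 and 0.170 CPM in line 119 and 7.10 and 8.53 CPM in line 73 (log2 difference -4.98 ± 0.56 SE, adjusted p = 9.55e-11). Acta2, smooth muscle actin, had 3.63 and 3.90 CPM in line 119 and 43.1 and 44.02 CPM in line 73 (log2 difference -3.53 ± 0.26 SE, adjusted p = 2.54e-16), and Pdgfra and Pdgfrb, the PDGF receptors, differed by -3.02 and -1.88. Knockout lines 112 and 113 had 3.63 and 1.43 CPM at Col1a2, 1.66 and 1.07 at Dcn and 4.34 and 5.35 at Acta2. Col1a1, the partner chain of Col1a2, differed by -0.47 and Lum by -0.55, and neither was called under both scalings. The summed level of the 7 was 42.0 and 48.5 CPM in line 119 and 183 and 177 CPM in line 73. In a bulk sample, a share of cells of another type and a lower or higher accessibility per cell cannot be told apart, and the part of any non-melanoma cells in these results was not tested. Markers of blood cells were detected in part. Start regions were found for 2 of 7 T cell, 2 of 5 B cell, 3 of 6 myeloid and 2 of 3 leukocyte markers, and Ptprc, Cd3e, Cd3d and Cd3g had none. The sums ran from 8.65 to 33.6 CPM for leukocyte markers and from 25.3 to 34.3 CPM for T cell markers. Cd53 and Cd68, of leukocytes and macrophages, were higher in line 73 (-2.29 and -2.65), and Cd2 was higher in line 119 (1.88). Cd2, of T cells, had 20.2 and 18.7 CPM in line 119 and 7.10 and 3.30 CPM in line 73. In line 119 that was a level near that of Sox10. The knockout lines had 28.8 (line 112) and 41.9 CPM (line 113) at Cd2. No start was listed for Cd2 and Cd4, so their regions may lie at either gene end. Cd4, at a region shared with Gpr162, had 14.1 and 14.4 CPM in line 119 and 22.1 and 22.01 CPM in line 73. Their part in the other results was not tested. Endothelial and keratinocyte markers had 1 region each, Kdr (0.38, not called) and Dsg3 (1.52, not called without replicate 1 of line 73, adjusted p = 0.0903).

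Of 17 genes of the dedifferentiated melanoma state, 8 were higher in line 73 (47.1%, against 18.4% of all genes) and 2 in line 119. With all-region scaling alone, 13 were higher in line 73, 76.5% against 69.9%. Ror2, a Wnt5a receptor, had 3.11 and 3.39 CPM in line 119 and 40.6 and 35.2 CPM in line 73 (log2 difference -3.54 ± 0.26 SE, adjusted p = 5.48e-16). Ccn2, a YAP and TGF-beta target, had 9.98 and 11.5 CPM in line 119 and 87.2 and 68.8 CPM in line 73 (log2 difference -2.87 ± 0.19 SE, adjusted p = 1.04e-17), and Egfr differed by -2.76. Ngfr, the nerve growth factor receptor that marks neural crest-like melanoma cells, and Nt5e went the other way, at 0.91 and 1.66. Without replicate 2 of line 119 or of line 73, Ngfr was no longer called (adjusted p = 0.0676 and 0.164). Axl, a receptor kinase of the same state, had 20.9 and 20.01 CPM in line 119 and 33.2 and 31.4 CPM in line 73 (log2 difference -0.66 ± 0.20 SE, adjusted p = 0.00457) but 0.01 in the gene-start scaling. Among other groups, 4 of 15 TEAD, YAP and TAZ genes were higher in line 73 (Ccn2, Ankrd1 at -2.07, Vgll4 and Lats1) and 0 in line 119. The 4 are 26.7%, against 18.4% of all genes. Twist2, Snai1, Fn1, Zeb1 and Twist1 of the epithelial-mesenchymal list were higher in line 73, from -2.06 to -1.05, and the adhesion molecules Mcam and L1cam higher in line 119, at 1.61 and 1.22. Runx2, a factor of bone and mesenchyme, differed by -2.59 and Runx3 by 1.01, a call that was lost without any 1 of 3 libraries (replicate 2 of line 119 or either of line 73). Laminins split, with Lama4 at 2.13, Lama5 at 1.35 and Lama3 at 1.03 against Lamb1 at -1.86. Of 21 TGF-beta and BMP genes 6 were higher in line 73, among them Smad6 (-1.98), Inhba (-1.91), Tgfb3 (-1.66) and Smad3 (-1.42), and Bmp2 in line 119 (1.07). The 6 are 28.6%, against 18.4% of all genes. Guidance genes had 2 higher in line 119, Epha5 (3.78) and Sema3e, and 7 of 36 higher in line 73, led by Slit3 (-2.51) and Sema5a (-1.98). These are 5.56% and 19.4%, close to the shares over all genes. The melanocyte receptors Ednrb (2.06) and Kit (0.84) were higher in line 119, and the ligands Hgf (-2.37) and Edn1 (-1.65) in line 73. MAPK feedback genes had 0 of 15 called under both scalings in either direction, 12 under all-region scaling alone.

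The remaining lists are read against the 7.91% and 18.4% of all genes called toward line 119 and line 73. Collagens had 1 of 23 higher in line 119 (Col12a1, 1.97, at either gene end since no start was listed) and 5 higher in line 73 (Col1a2, Col4a5, Col6a3, Col4a1 and Col4a2). Of 18 invasion proteases and inhibitors, Serpine2 and Mmp10 were higher in line 119, at 1.41 and 1.97, and Plau and Mmp11 in line 73, at -2.10 and -1.72. Wnt genes split evenly, 4 and 4 of 29, with Fzd6 (1.31) and Wnt16 (1.40, not called without replicate 1 of line 119 or replicate 2 of line 73, adjusted p = 0.0674 and 0.109) against Wnt10b (-2.36) and Wnt1 (-1.34). Of 15 cytokines and chemokines, Cxcl2, Cxcl5 and Il11 were higher in line 119, from 1.02 to 1.31, and Csf3, Ccl7, Cxcl12, Cxcl1 and Cxcl10 higher in line 73, from -1.85 to -1.35. Csf3 and Ccl7 had no listed start. AP-1 factors had 2 of 11 higher in line 73 (Maff and Fosl2, the latter not called with a loess offset, adjusted p = 0.0637), the C/EBP family 1 of 6 (Ddit3, -1.17, a region shared with Mbd6, not called with a loess offset, adjusted p = 0.0860) and antigen presentation 1 of 13 (Irf1, -1.03, adjusted p = 0.0512 with a loess offset). Cebpa and Cebpd, at -0.16 and -0.21, were not called with all-region scaling. In the gene-start scaling both were called higher in line 119, at 0.50 and 0.46. Cebpb, at -0.85, was called higher in line 73 under all-region scaling alone.

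Over all regions tied to the genes of a list, inside the gene or within 50 kb with that gene the nearest, Hox clusters had 3 of 98 higher in line 119 and 62 higher in line 73, and fibroblast markers had 4 of 66 higher in line 119 and 25 higher in line 73. The shares over all tested regions were 29.6% and 13.6%. Antigen presentation genes had 2 of 51 higher in line 119 and 7 higher in line 73. Guidance genes had 263 of 764 higher in line 119 and 94 higher in line 73, and the epithelial-mesenchymal list 73 of 204 higher in line 119 and 26 higher in line 73. The neural crest factors had 99 of 302 higher in line 119 and 26 higher in line 73, that is 32.8%, close to the share over all regions, so the excess toward line 119 at their starts was not seen over the whole list. The start regions of Lats1, Mmp11, Epha5 and Pdgfrb are shared with Pcmt1, Chchd10, Gm42163 and Gm52351, and counts there cannot be split between the genes.

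**Figure D3:**
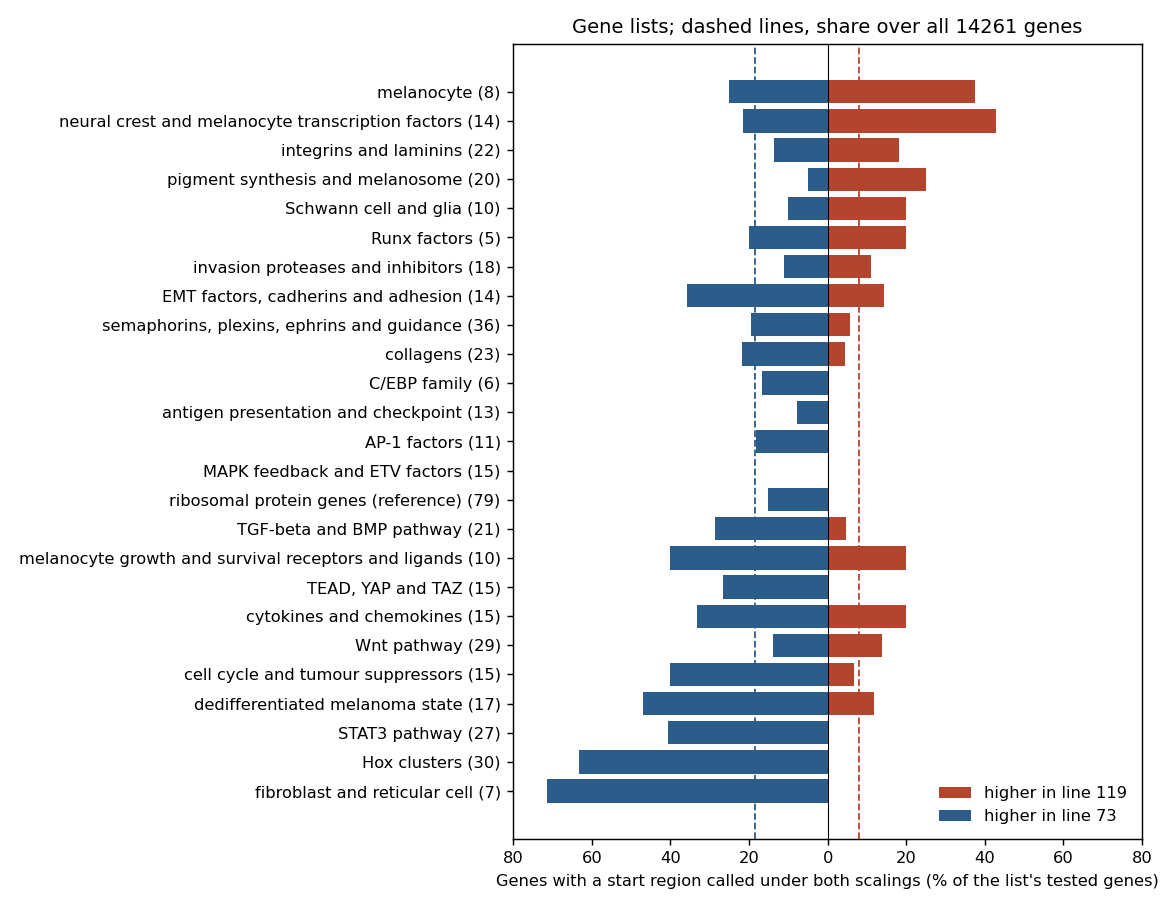
Share of each list's tested genes, in %, with a start region higher in line 119 (red, right) or line 73 (blue, left) under both scalings, for lists with at least 5 such genes (number in brackets), ordered by median. Dashed lines mark the share over all genes, 7.91% and 18.4%; neural crest factors reach 42.9% on the right and Hox clusters 63.3% on the left.

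**Figure D4:**
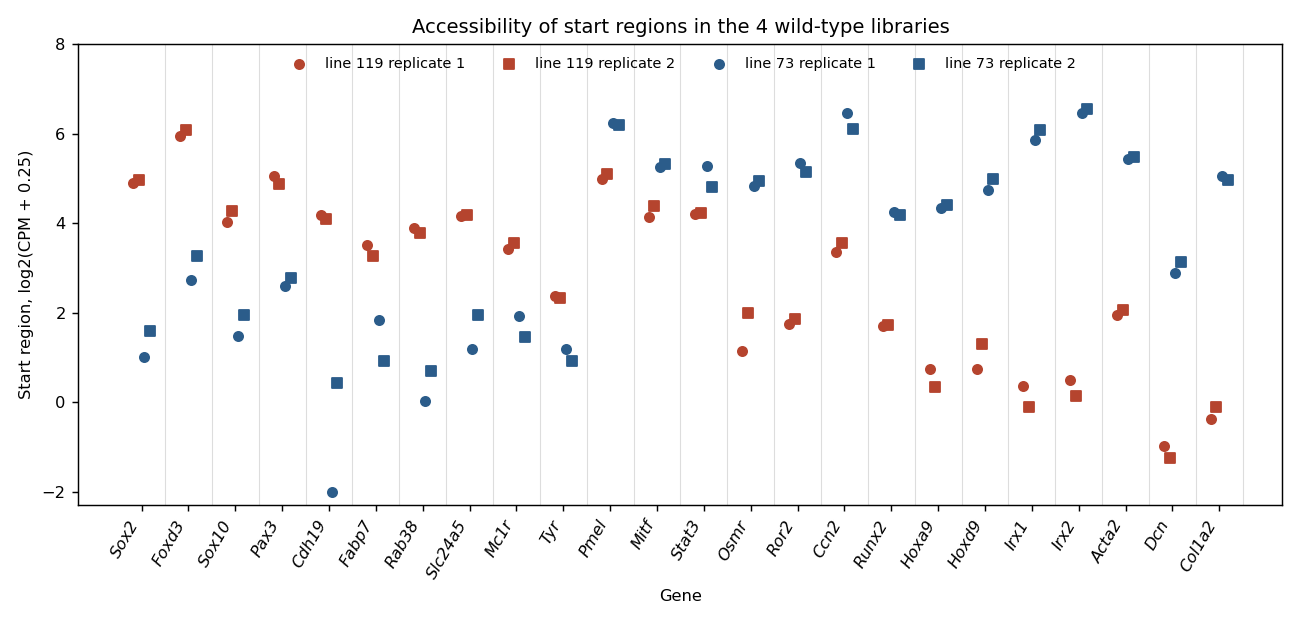
Accessibility of the start regions of 24 named genes in each wild-type library, as log2(CPM + 0.25), line 119 in red and line 73 in blue, replicate 1 as circles and replicate 2 as squares. Genes run from Sox2 (log2 difference 3.74) on the left to Col1a2 (-5.70) on the right, and most were picked for their difference. The lines do not overlap at any gene shown, which also holds at 39.5% (line 119 above) and 41.6% (line 119 below) of all regions.

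In the STAT pathway the lines differed most at Stat5a and Stat5b, neighbours of Stat3 on chromosome 11 that encode signal transducers of cytokine and growth hormone receptors. The Stat5a start region (chr11:100860145-100860690) had 0 and 0 CPM in line 119 and 22.1 and 16.5 CPM in line 73, that is 0 counts in line 119. Set against a floor of 3 counts over both libraries, it was at least 87.5-fold higher in line 73 (adjusted p = 6.78e-17). The Stat5b start region (chr11:100849998-100851451) had 0.259 and 0 CPM in line 119 and 34.5 and 33.0 CPM in line 73 (log2 difference -7.60 ± 0.43 SE, adjusted p = 8.33e-20). The knockout lines had 19.5 and 21.9 CPM at Stat5a and 30.4 and 28.2 at Stat5b. Stat3 itself was open in both lines, with 18.3 and 18.3 CPM in line 119 and 38.5 and 27.8 CPM in line 73 (log2 difference -0.86 ± 0.19 SE, adjusted p = 1.39e-04), and -0.19 in the gene-start scaling, where it was not called. The deposited regions do not say whether the conditional allele is intact. Of 27 pathway genes with a start region, 11 were higher in line 73 under both scalings and 0 in line 119. The 11 are 40.7%, against 18.4% of all genes, and 7.91% of all genes were higher in line 119. After the Stat5 pair came Osmr, the oncostatin M receptor, with 1.94 and 3.73 CPM in line 119 and 28.1 and 30.3 CPM in line 73 (log2 difference -3.40 ± 0.30 SE, adjusted p = 1.16e-13), and the kinase Jak3 at -1.57. The knockout lines had 3.67 (line 112) and 2.17 CPM (line 113) at Osmr. Stat6, Il6ra, Lifr, Socs2, Myc, Stat2 and Pias3 were at -1.41 to -1.03. Socs3, Il6st, Jak1 and Jak2, the core of the pathway, were not called under both scalings.

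The promoters of the Stat5 pair are printed as the sites where line 119 had 2 counts or none.
Stat5b (chr11:100850582-100850831, minus strand): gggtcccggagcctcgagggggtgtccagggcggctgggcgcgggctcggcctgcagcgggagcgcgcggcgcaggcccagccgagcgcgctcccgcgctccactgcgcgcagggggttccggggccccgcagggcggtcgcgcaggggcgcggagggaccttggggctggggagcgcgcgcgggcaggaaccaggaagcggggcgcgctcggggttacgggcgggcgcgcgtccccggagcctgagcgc
Stat5a (chr11:100860234-100860483, plus strand): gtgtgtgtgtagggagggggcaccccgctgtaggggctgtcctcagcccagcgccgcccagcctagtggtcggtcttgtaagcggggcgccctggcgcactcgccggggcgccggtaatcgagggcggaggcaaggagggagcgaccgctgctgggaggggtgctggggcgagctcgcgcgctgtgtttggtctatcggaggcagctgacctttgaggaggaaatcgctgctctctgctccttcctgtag
Neither window holds any of the 14 motifs, so there are no capitals. A second Stat5a start, not printed, lies in the same stretch, and its window holds CAGGTG, an E-box found in 16.5% of promoter windows, at 62 bases. That says nothing of the factors that bind there. The Stat5b window is rich in CpG, with 40 in 250 bases, and that of Stat5a has 21.

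The 2 empty starts belong to a stretch of consecutive empty regions. From chr11:100789591-100860690, 71.1 kb that cover most of Stat5b and the Stat5a start region, line 119 had 2 and 0 counts over 9 regions. Line 73 had 331 and 277 counts there, and the knockout lines 1208 over 4 libraries. The next regions on either side, at the Ghdc start and inside Stat3, had counts in all wild-type libraries.

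Such stretches were sought after the empty starts had been seen, as runs of at least 4 regions with at most 3 counts in a line, those at 0 at least as many as those above it, and at least 100 counts in the other wild-type line. The rule found 4 stretches for line 119 and 6 for line 73. Besides Stat5, those of line 119 included 7 regions at Dynlt1b on chromosome 17 (3 and 3 counts against 188 and 203) and 4 on chromosome 8 between Cyp4f18 and Tpm4 (0 and 0 against 69 and 54). In line 73 they included runs in the Ear and Ang gene cluster on chromosome 14 (8 and 15 regions, with 0 and 2, then 6 and 2 counts) and at Pcdh9, Syndig1 and Cnksr2. Dynlt1b, Ear and Ang are multi-copy families, where reads may be split between copies, so these are uncertain. Counts alone do not tell closed chromatin from absent DNA, and which applies was not tested.

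**Figure D5:**
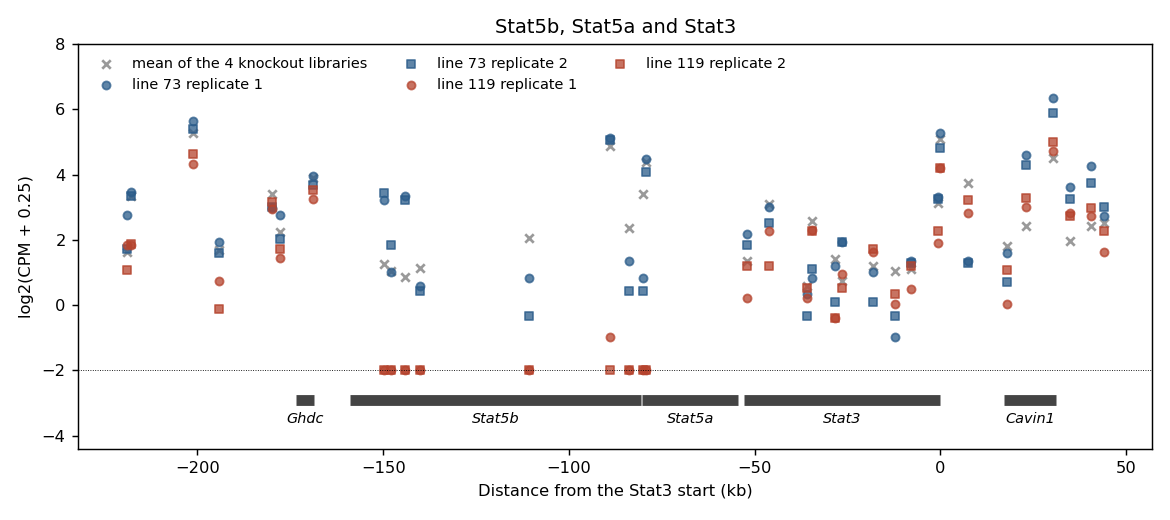
Log2(CPM + 0.25) of every region around Stat5b, Stat5a and Stat3 against distance in kb from the Stat3 start, for the 4 wild-type libraries (line 119 red, line 73 blue) and the mean of the knockout libraries (grey crosses); bars mark genes and the dotted line is 0 counts. Line 119 sits at or near 0 over 71.1 kb at Stat5b and Stat5a, where line 73 and the knockout mean lie above it.

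The largest differences at single starts, or at either end of genes without a listed start, were named by fold. Toward line 119 they included Olfr362, Gm14305, Cps1 and Vmn2r104, all at 0 counts in line 73, then Veph1, Ggh, Atp10b, Sntn, Cdh19, Dok5 and Casp4. Of these, Cps1, Ggh, Atp10b, Cdh19 and Dok5 had no listed start, so their regions may lie at either gene end. Atp10b, a phospholipid flippase, had 40.4 and 40.02 CPM in line 119 and 1.27 and 1.10 CPM in line 73 (log2 difference 5.05 ± 0.34 SE, adjusted p = 2.22e-17), and Veph1 had 22.2 and 24.2 CPM in line 119 and 0.507 and 0 CPM in line 73 (log2 difference 6.32 ± 0.52 SE, adjusted p = 1.17e-14). Dok5, an adaptor of receptor kinases, had 30.1 and 28.3 CPM in line 119 and 1.52 and 0.275 CPM in line 73 (log2 difference 4.95 ± 0.43 SE, adjusted p = 7.02e-14). Cps1, a urea cycle enzyme, had 5.44 and 5.09 CPM in line 119 and 0 and 0 CPM in line 73 and was at least 13.3-fold higher in line 119. Olfr362, Vmn2r104 and Gm14305 belong to large families with near-identical copies and are uncertain. Toward line 73 they included Stat5a, Dynlt1b, Ogn, Stat5b, Irx2, Ptchd4, Fgl1, Irx1, Col1a2, Lrch2 and Plac8. Of these, Dynlt1b, Fgl1 and Irx1 had no listed start. Ptchd4 had 0.389 and 1.19 CPM in line 119 and 54.8 and 55.3 CPM in line 73 (log2 difference -6.17 ± 0.33 SE, adjusted p = 1.79e-20). Ogn, the matrix proteoglycan osteoglycin, had 0 and 0 CPM in line 119 and 5.83 and 5.50 CPM in line 73 and was at least 25.7-fold higher in line 73. Over 50 kb from a gene start, the largest differences toward line 119 lay 116468 bp from the start of Sv2c, inside that gene, 112889 bp from Dthd1 and 913958 bp from Tyrp1, each at 0 counts in line 73 and at least 51.9-, 40.02- and 38.6-fold higher in line 119. One of the largest toward line 73 lay 907874 bp from Unc5d.

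Of all genes, 18.4% were higher in line 73 under both scalings and 7.91% in line 119. Among cell cycle genes, 6 of 15 were higher in line 73 under both scalings and 1 in line 119. They included Trp53, at a region shared with Wrap53 (-1.62), Ccnd2 (-1.55), Rb1 (-1.22), Cdkn1b (-1.14) and Cdk4 (-1.03). Cdkn2a, the tumour suppressor locus often lost in melanoma, was open in both lines and higher in line 119, with 35.0 and 31.4 CPM in line 119 and 22.3 and 20.6 CPM in line 73 (log2 difference 0.63 ± 0.19 SE, adjusted p = 0.00372). That call was lost without replicate 1 of line 119 (adjusted p = 0.0641), without replicate 2 of line 73 (adjusted p = 0.0537) and with the regional offset (log2 difference 0.22, adjusted p = 0.330). Of the Y chromosome genes, Ddx3y, Eif2s3y and Uty were open in both wild-type lines, Kdm5d was low, with 1.94 and 1.36 CPM in line 119 and 2.79 and 4.13 CPM in line 73, and all 4 were at 0 in both knockout lines. Ddx3y had 11.1 and 11.2 CPM in line 119 and 15.5 and 19.3 CPM in line 73 (log2 difference -0.63 ± 0.25 SE, adjusted p = 0.0244), and 0.03 in the gene-start scaling. Eif2s3y, Uty and Kdm5d differed by -0.17, -0.56 and -1.02 and were not called (adjusted p from 0.0597 to 0.564).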

How the data were processed

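ATAC-seq counts per region for 8 libraries, deposited by the authors as raw counts without normalization, were used. Bowtie2 2.2.4, Picard 1.118 and MACS2 2.1.1.20160309 and the build mm10 are named in the submitters' processing notes, without roles. How duplicates, Tn5 offsets and reads or fragments were counted is not given in the sources used here, and double counting of pairs would make the counting error too small. Per the labels, each reaction held 50000 cells, and size selection took out fragments longer than 1200 bp. The authors' peak lists, deposited per library, give a score, a fold ratio and -log10 p and q-values per peak. They were used for overlap (at least 1 bp) only. Of the strongest regions, 71.55% lie within 1 kb of a RefSeq GRCm38.p6 gene start or end, against 6.15% after a shift of 100000 bp, which checks the build.

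Regions passing filterByExpr (minimum count 10, total 15) were fitted with edgeR 4.0.16 (R 4.3.3, limma 3.58.1), TMM scaling and a quasi-likelihood test with 1 coefficient per line over all 8 libraries, with Benjamini-Hochberg adjustment over 134068 regions at 0.05. The fit, tested on simulated data, was repeated with TMM factors from gene-start regions. The coefficient of variation between replicates was 0.115. Library totals ran from 2697546 to 7464336. Samples sharing a replicate number did not deviate together (correlation -0.0176 between lines 119 and 73), so libraries were not paired.

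Each gene is given by its strongest region within 1 kb of the start, or of either end where no start was listed. Named were the 12 starts with the largest change per direction (at least 20 counts in both libraries of the higher line), 3 regions over 50 kb from gene starts, 8 loci with ties, and up to 4 called genes per list. Others named from a list or for a stretch were chosen after their values were seen. Some genes these rules named are not reported here. The comparison, lists and markers were chosen with earlier results of these data known. Without a genome, motifs were searched only in the 300-base RefSeq promoter windows, and the planned search over all regions was not run. Alternatives were other scalings, DESeq2 1.42.0, a 2-fold test, other filters, fewer libraries, thinning, a replicate block, other anchors and overlaps, and a 10 Mb regional offset.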

Additional observations from a re-analysis of the deposited data

Results flagged for a closer look

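Peaks outside the chromosomes of the count table, on unplaced scaffolds and the mitochondrial genome, were used in no comparison. The authors' lists held 40 and 39 such peaks in line 119 and 39 and 33 in line 73. Of these, 7, 6, 8 and 6 were mitochondrial.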

How the results depend on the processing

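The totals and shares moved with scaling and test. With TMM factors from gene-start regions, 18183 regions were higher in line 73 and 37.6% of gene-start regions were called. The loess offset called 39.7% of gene-start regions. Of the called regions, 49.1% were higher in line 119 with all-region scaling, 55.5% with total counts and 75.7% with gene-start scaling. The DESeq2 Wald test called 25831 regions higher in line 73 and 37.6% of regions at 1 to 50 kb. Against a 2-fold threshold, edgeR's glmTreat called 39436 regions, 24224 higher in line 119 and 15212 in line 73 (61.4% higher in line 119), with 12.2%, 28.4% and 37.0% called at gene starts, at 1 to 50 kb and beyond. Requiring a mean of 50 counts left 20079 called, 10564 and 9515 by direction, because fewer regions were tested.

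Leaving out each wild-type library called 63827 to 67662 regions, 32055 to 34409 higher in line 119 and 31313 to 34377 in line 73. The shares called were 55.5% to 61.5% at gene starts, 44.01% to 47.2% at 1 to 50 kb and 49.3% to 52.1% beyond. Under such a fit the lone library is assumed to vary like the other lines. With replicate number as a block, though the numbers pair nothing, 79849 regions were called.

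Of 140 named regions, 117 kept direction and call in the gene-start scaling and 5 changed sign: Axl to 0.0097, Cd4 to 0.040, Cebpg to 0.21, Ddx3y to 0.033 and Runx1 to 0.26, none of them called there. With the loess offset Cebpg and Runx1 were at 0.25 and 0.25. Leaving out 1 library lost 7 to 13 calls. Regions with few counts limit what can be called: Mlana, at 0 to 5 counts per library, could not be compared.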
